A study of Mus musculus with 16 samples.

Results

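The pericentral hepatocyte genes described here are 8 genes of the liver cells that surround the central vein: Glul, Slc1a2, Rhbg, Cyp2e1, Cyp1a2, Lgr5, Axin2 and Tbx3. They were taken as every probe that the array's annotation assigns to 1 of these symbols, which gave 14 of the 25697 probes, and 8 of the 16593 annotated genes. All 14 probes were detected (p-value under 0.05 in the deposited detection column) on 2 arrays or more, so all 8 members were among the 11338 tested features. RNA was measured in whole liver of male FVB mice aged 10 weeks on Illumina arrays with 1 colour, in 8 groups of 2 arrays. The groups were liver-specific LKB1 knockouts (LKB1 lox/lox; LKB1 is the kinase encoded by Stk11, which activates the energy sensor AMPK) given CCl4, mineral oil, AICAR or saline, and wild-type mice given the same 4 agents. CCl4 is a liver toxicant, and AICAR is a nucleoside that cells convert into a mimic of AMP and that activates AMPK. The labels do not say what drives the deletion, give no dose or time, and list oil and saline as controls without pairing them, so oil was taken as the vehicle of CCl4 and saline as that of AICAR.

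Values are log2 signals after background correction and quantile normalization, compared with limma in 1 model over all groups, with p-values adjusted over all 11338 features and a threshold of 0.05. Levels of different probes are not comparable, so only differences of the same probe are given. The median deposited intensity was 172.4 to 213.7 per array, and 12233 to 13730 probes were detected. Stk11 read 8.94 to 9.54 on knockout arrays, against 10.04 to 10.38 on wild-type arrays. Between the 2 knockout saline arrays no difference beyond noise was found. Across 2849 pairs of probes to the same gene, the log2 differences between these arrays correlated at 0.019 (95% interval -0.018 to 0.056). The 119 other pairs of arrays gave at least 0.31. The 2 knockout saline arrays were counted as 1 sample, so 15 samples entered the fit. The 2 wild-type oil arrays stood apart from each other: haemoglobin gene Hba-a1 read 15.68 on replicate 1 and 13.14 on replicate 2, and the summed erythroid signal spanned 9560 to 53200. The labels call replicates biological without saying whether each is 1 animal, so p-values measure the spread between these samples only. Hepatocyte markers summed to 128000 to 166000 over all arrays. All 4 tested were detected on every wild-type and knockout saline array. Only 3 were detected on at least 1 array of each other knockout group. The single Alb probe read only 5.23 to 6.97. Whole-liver RNA cannot tell fewer pericentral cells from less RNA per cell, and it carries no position in the lobule.

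Pericentral hepatocytes form the last part of the liver lobule that blood crosses before it drains into the central vein. Endothelial cells of that vein release Wnt ligands and R-spondin, which stabilise beta-catenin in the neighbouring hepatocytes and keep on a set of genes for glutamine synthesis and for xenobiotic metabolism. Glul, glutamine synthetase, joins ammonia to glutamate; Slc1a2, the transporter GLT-1, takes up glutamate; Rhbg, a Rhesus family channel, carries ammonia. Cyp2e1 and Cyp1a2 are cytochrome P450 enzymes: the product of Cyp2e1 turns CCl4 into a radical, and Cyp1a2 is a target of the aryl hydrocarbon receptor. Lgr5 is a receptor for R-spondins, Axin2 is a feedback inhibitor that beta-catenin switches on, and Tbx3 is a transcription factor induced by the same pathway.

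The 250 bases before the annotated transcript start are shown for the 5 members in RefSeq's promoter table (GRCm38.p6), because beta-catenin acts through TCF/LEF factors and several of these genes are described as its targets. Rhbg, Lgr5 and Tbx3 are named only. Capitals mark the TCF/LEF core (CTTTGA, or TCAAAG where it lies on the other strand) and the TATA box (TATAAA). The windows are Glul at chr1:153899679-153899928 (plus strand), Slc1a2 at chr2:102706188-102706437 (plus), Cyp2e1 at chr7:140763569-140763818 (plus), Cyp1a2 at chr9:57683656-57683905 (minus) and Axin2 at chr11:108920099-108920348 (plus). For Slc1a2 and Axin2 the table's start lies inside the span annotated for the gene, so these windows are upstream of 1 transcript start and not of the whole gene.
Glul: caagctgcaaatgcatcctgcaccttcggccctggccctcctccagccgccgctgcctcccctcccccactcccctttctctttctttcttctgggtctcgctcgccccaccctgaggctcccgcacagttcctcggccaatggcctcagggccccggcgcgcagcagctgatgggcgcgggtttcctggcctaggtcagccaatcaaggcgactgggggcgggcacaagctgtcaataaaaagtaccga
Slc1a2: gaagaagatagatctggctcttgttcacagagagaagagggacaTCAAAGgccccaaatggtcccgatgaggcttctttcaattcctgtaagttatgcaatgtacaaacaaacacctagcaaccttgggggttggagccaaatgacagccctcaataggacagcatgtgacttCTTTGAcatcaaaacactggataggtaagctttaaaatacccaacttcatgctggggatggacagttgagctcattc
Cyp2e1: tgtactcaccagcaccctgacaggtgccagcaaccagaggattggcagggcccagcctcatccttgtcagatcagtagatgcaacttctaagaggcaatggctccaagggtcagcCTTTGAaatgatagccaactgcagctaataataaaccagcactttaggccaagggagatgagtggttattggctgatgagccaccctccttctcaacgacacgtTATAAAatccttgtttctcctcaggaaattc
Cyp1a2: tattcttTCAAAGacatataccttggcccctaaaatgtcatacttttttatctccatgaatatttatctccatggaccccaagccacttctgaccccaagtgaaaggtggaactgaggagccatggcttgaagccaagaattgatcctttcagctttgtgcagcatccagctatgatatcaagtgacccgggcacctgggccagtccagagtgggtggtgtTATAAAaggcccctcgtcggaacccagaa
Axin2: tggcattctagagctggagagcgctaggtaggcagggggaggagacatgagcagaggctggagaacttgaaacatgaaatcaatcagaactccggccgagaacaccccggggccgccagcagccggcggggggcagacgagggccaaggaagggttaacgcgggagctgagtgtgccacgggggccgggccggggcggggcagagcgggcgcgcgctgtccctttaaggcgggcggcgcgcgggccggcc

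The TCF/LEF core was present on either strand in 3 of these 5 windows and in 13.8% of all 32851 promoters of the same length. Slc1a2 held it at 206 and 77 bases before the start, Cyp2e1 at 135 and Cyp1a2 at 243. A TATA box stood 31 bases before the start of Cyp2e1 and 29 before that of Cyp1a2, and occurred in 12.4% of all promoters. The letters CCAAT, on either strand, lay at 113 and 50 bases before the start of Glul and at 210 and 68 before that of Cyp2e1 (33.8% of all promoters). The core of the xenobiotic response element that the aryl hydrocarbon receptor binds (TNGCGTG, either strand) was in none of the 5 windows and in 4.1% of all promoters. Motifs were searched separately and did not overlap in the printed windows, and a match is a description of letters and not of binding.

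Of the 8 members, the probe used for Cyp2e1, Cyp1a2, Rhbg, Axin2 and Tbx3 was detected on all 16 arrays, that for Glul on 12, that for Slc1a2 on 12 and that for Lgr5 on 9. Slc1a2 had an SD of 2.31 over the 15 samples, above that of 99.9% of the tested features. The SD of Glul was 0.97 (97.4%), that of Cyp2e1 0.81 (95.5%), that of Cyp1a2 0.75 (94.0%) and that of Rhbg 0.71 (93.0%). Tbx3 (0.57), Axin2 (0.56) and Lgr5 (0.44) varied less, at percentiles 86.9, 86.0 and 72.1. Within groups the picture differed between genes: the residual SD of Glul was 0.25, which only 41.3% of features were below, whereas that of Slc1a2 was 0.86 (98.4%) and that of Axin2 0.66 (95.5%). Most of the spread of Glul therefore lay between groups, and most of that of Axin2 lay between the 2 arrays of a group.

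**Figure D1:**
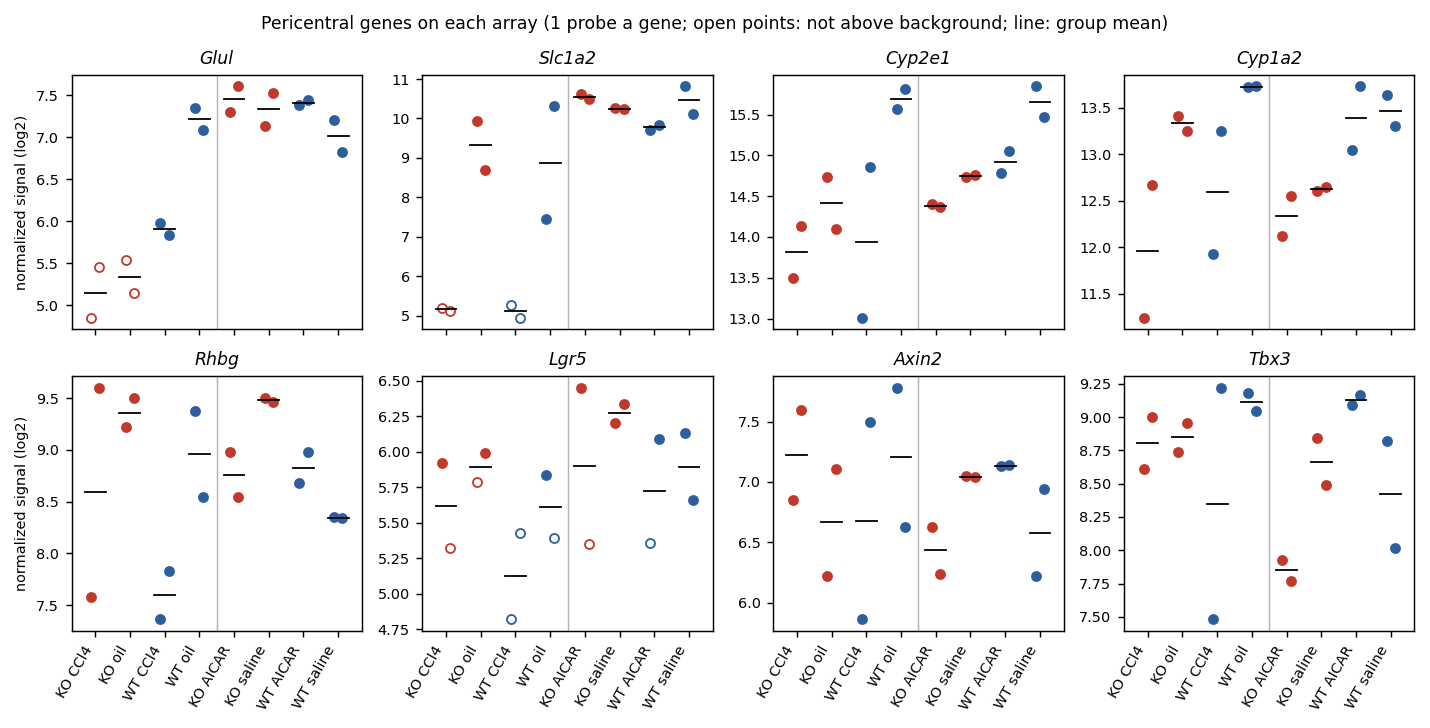
Normalized log2 signal of each pericentral gene on each of the 16 arrays (1 probe a gene), knockout arrays in red and wild-type arrays in blue, with a line at the group mean and open points where the probe was not above background. Glul lay between 4.85 and 5.54 on the 4 knockout CCl4 and oil arrays and at 7.14 or more on knockout AICAR and saline arrays, and Slc1a2 was not above background on the 4 CCl4 arrays.

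The comparison of CCl4 with mineral oil asks how the toxicant acted on these genes in each genotype. Slc1a2 had the widest gap of the 8: its signal was at background on all 4 CCl4 arrays and well above it on all 4 oil arrays. In knockout livers 6 of the 7 members above background in at least 1 of the groups had a lower mean under CCl4 (median log2 difference -0.61; Glul was in neither), and in wild-type livers all 8 had (median -1.22). No member passed the adjusted threshold in either genotype, and no feature on the array did: limma called 0 of 11338 (0% either way) in both, with 403 features at an unadjusted p under 0.05 in knockout (3.55%) and 1058 in wild-type livers (9.33%), against 2 and 5 of the 8 members. Of all features, 46% were lower in knockout and 48.9% in wild-type livers, with medians of 0.02 and 0.009. Both CCl4 arrays lay below both oil arrays for 2 members in knockout livers (11.8% of all features) and for 5 in wild-type livers (17.9%). The interaction of CCl4 with genotype was called for 0 of 11338 features (0%).

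Slc1a2 read 5.20 and 5.12 in knockout livers given CCl4, against 9.94 and 8.69 in knockout livers given oil. In wild-type livers it read 5.27 and 4.95 under CCl4, against 7.45 and 10.31 in oil. The CCl4 and oil arrays did not overlap in either genotype, and the wild-type oil pair was itself far apart. Because the CCl4 groups were not above background, the ratio is a bound: at least 11.9-fold lower than oil in knockout livers (log2 difference -4.15 ± 0.71 SE, adjusted p = 0.57) and at least 9.65-fold lower in wild-type livers (-3.77 ± 0.71, adjusted p = 0.35). The bound in knockout livers was 7.71-fold without knockout oil replicate 1 (log2 difference -3.53) and 18.4-fold without replicate 2 (-4.78). The interaction of CCl4 with genotype was -0.38 (95% interval -2.60 to 1.84). Without wild-type oil replicate 1 the wild-type difference was -5.20 (at least 26-fold) and was called (adjusted p = 0.0088), and without replicate 2 it was -2.34 (at least 3.58-fold, adjusted p = 0.84); over all settings its adjusted p ran from 0.0088 to 0.88. Leaving out either wild-type oil array also brought the knockout difference, unchanged at -4.15, past the threshold (adjusted p = 0.011, range 0.011 to 1 over all settings), since those arrays enter that comparison only through the shared spread. With no background correction the differences shrank to -2.22 in knockout and -2.00 in wild-type livers.

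Slc1a2 has 4 probes, and 3 of them gave the same picture. ILMN_3123195 averaged 5.18 under CCl4 against 8.78 in oil in knockout livers, and 5.50 against 8.34 in wild-type livers. ILMN_2642339 averaged 4.88 under CCl4 against 7.15 in oil in knockout livers, and 4.87 against 6.97 in wild-type livers. The log2 differences were -3.59 ± 0.65 and -2.27 ± 0.54 in knockout livers and -2.83 ± 0.65 and -2.10 ± 0.54 in wild-type livers, and none passed after adjustment (adjusted p from 0.41 to 0.91). Under CCl4 ILMN_2642339 was not above background, so its ratios are bounds of at least 2.66-fold lower in knockout and 2.56-fold in wild-type livers. ILMN_3123195 was not above background in knockout livers given CCl4 (at least 8.19-fold lower). The probe ILMN_3047516 was dim, with detection on 5 of 16 arrays, and its differences were 0.49 ± 0.34 in knockout and -0.43 ± 0.34 in wild-type livers.

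**Figure D2:**
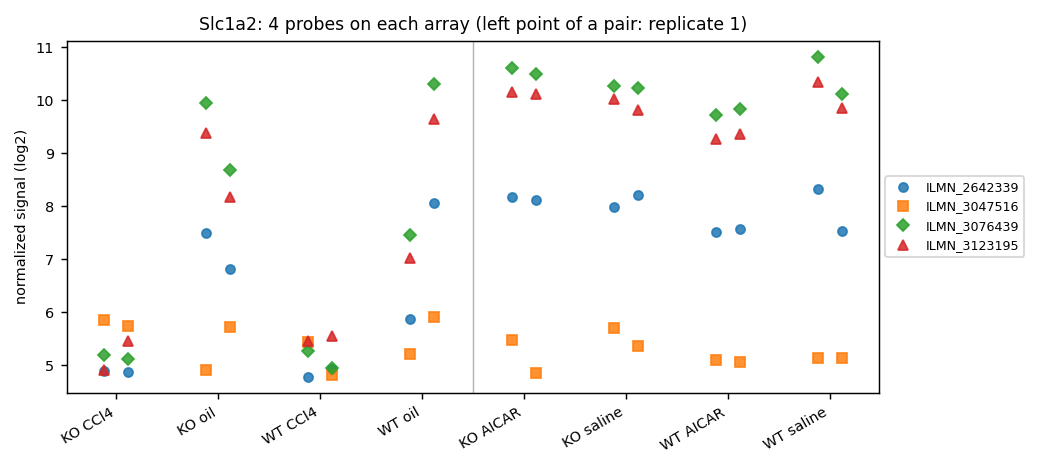
Normalized log2 signal of the 4 Slc1a2 probes on each array, with 1 colour and marker a probe and replicate 1 at the left of each pair. Under CCl4 the 3 brighter probes lay at 4.79 to 5.55 in both genotypes, while in oil ILMN_3076439 ran from 7.45 to 10.31 over the 4 arrays.

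Glul could be followed under CCl4 in wild-type livers only. In knockout livers it was not above background under CCl4 (4.85 and 5.45) or in oil (5.54 and 5.14), so no ratio can be given. In wild-type livers it read 5.98 and 5.84 under CCl4, against 7.35 and 7.09 in oil, so both CCl4 arrays lay below both oil arrays. The wild-type difference of -1.31 ± 0.25 missed the threshold after adjustment (adjusted p = 0.35), and it was -1.18 without wild-type oil replicate 1, -1.44 without replicate 2 and -0.53 with no background correction. The interaction of CCl4 with genotype was 1.13 ± 0.35 (adjusted p = 1); both knockout groups lay at background, so this value has a floor on the knockout side.

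Rhbg read 7.58 and 9.60 in knockout livers given CCl4, against 9.22 and 9.50 in oil, and the CCl4 pair enclosed the oil pair. In wild-type livers it read 7.36 and 7.83 under CCl4, against 9.38 and 8.54 in oil. The wild-type pairs were separate, with a difference of -1.37 ± 0.52 (adjusted p = 0.51), whereas the knockout difference of -0.77 ± 0.52 came from 1 array: it was 0.24 without knockout CCl4 replicate 1 and -1.78 without replicate 2.

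Both cytochrome P450 genes stayed bright on every array. Cyp2e1 read 13.50 and 14.13 in knockout livers given CCl4, against 14.74 and 14.10 in oil, and these pairs overlapped. In wild-type livers it read 13.01 and 14.86 under CCl4, against 15.57 and 15.82 in oil, so both CCl4 arrays were below both oil arrays although they were far from each other. The differences were -0.61 ± 0.48 in knockout (adjusted p = 1) and -1.76 ± 0.48 in wild-type livers (adjusted p = 0.43), and the interaction was 1.15 with a 95% interval of -0.35 to 2.66. Without wild-type CCl4 replicate 1 the wild-type difference was -0.84, and without replicate 2 it was -2.68, with adjusted p above 0.05 in both fits (0.88 and 0.077; range over all settings 0.077 to 1).

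Cyp1a2 read 11.24 and 12.67 in knockout livers given CCl4, against 13.41 and 13.25 in oil. In wild-type livers it read 11.93 and 13.25 under CCl4, against 13.72 and 13.73 in oil. In both genotypes the CCl4 arrays lay below the oil arrays, by -1.37 ± 0.49 (adjusted p = 1) in knockout and -1.13 ± 0.49 (adjusted p = 0.52) in wild-type livers. Its other probe, ILMN_2795106, gave -1.34 ± 0.44 and -1.16 ± 0.44. Without replicate 1 or replicate 2 of the CCl4 pair the differences were -0.66 and -2.09 in knockout and -0.47 and -1.79 in wild-type livers.

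The 3 Wnt pathway members had smaller differences than their replicate spread allowed to separate. Lgr5 was near the detection limit: it read 5.92 and 5.32 in knockout livers given CCl4, against 5.79 and 5.99 in oil, and 4.82 and 5.43 in wild-type livers given CCl4, against 5.84 and 5.39 in oil, with neither wild-type CCl4 array above background. Axin2 read 6.85 and 7.60 in knockout livers given CCl4, against 6.22 and 7.11 in oil, and 5.86 and 7.50 in wild-type livers given CCl4, against 7.78 and 6.63 in oil. Tbx3 read 8.61 and 9 in knockout livers given CCl4, against 8.74 and 8.96 in oil, and 7.48 and 9.22 in wild-type livers given CCl4, against 9.18 and 9.05 in oil. The groups overlapped for all 3 in both genotypes. Log2 differences in knockout livers were -0.26 for Lgr5, 0.56 for Axin2 and -0.05 for Tbx3, and in wild-type livers -0.49, -0.53 and -0.77, with unadjusted p-values of at least 0.12 in both genotypes. For Axin2 and Tbx3 the wild-type sign hung on 1 array, with differences of 0.29 and 0.10 without wild-type CCl4 replicate 1.

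**Figure D3:**
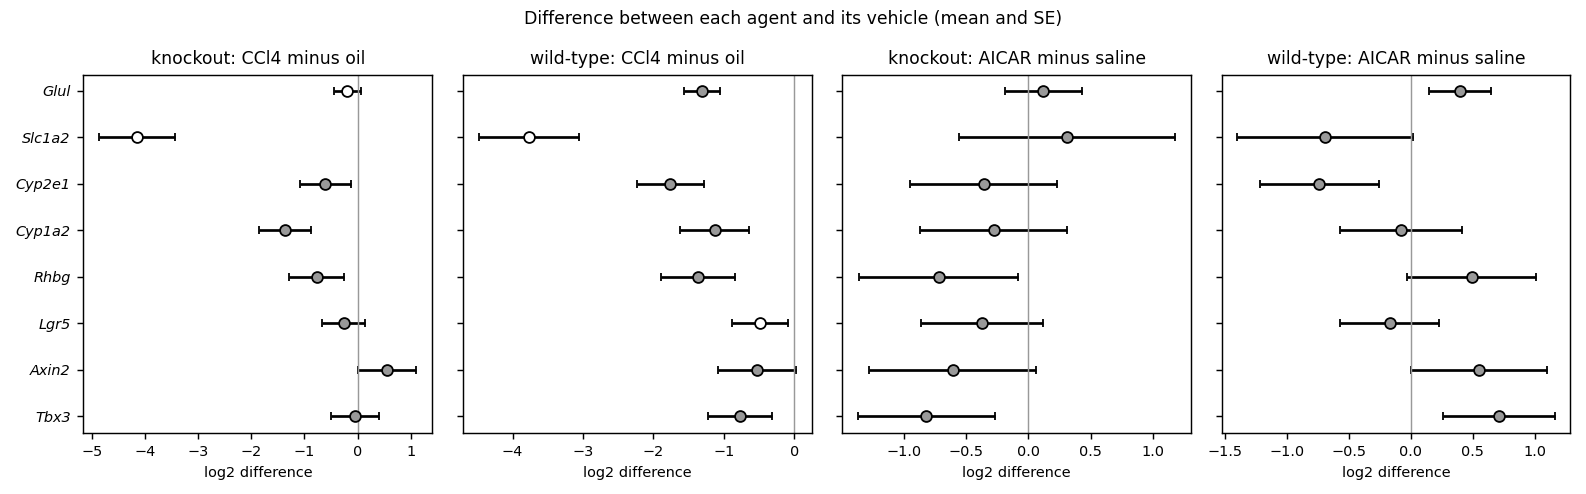
Log2 difference between each agent and its vehicle for the 8 pericentral genes in knockout and wild-type livers, with bars of 1 SE from the limma fit and open points where a group was not above background. Slc1a2 lay at -4.15 and -3.77 under CCl4, and the AICAR differences ran from -0.82 to 0.71.

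Taking the other genes of these pathways from lists drawn up for this report, 18 further pericentral genes were tested. Under CCl4 13 of 18 were lower in knockout livers (median -0.41) and 15 of 18 in wild-type livers (median -0.58), with none called in either. Those with the smallest p in knockout livers were Cyp3a11 (14.01 and 14.43 under CCl4, against 15.25 and 15.44 in oil; -1.12 ± 0.22, adjusted p = 0.57), a drug-metabolising P450, the glutathione transferase gene Gstm1 (-0.71 ± 0.26) and the P450 gene Cyp2a5 (-0.88 ± 0.41). In wild-type livers they were Oat, ornithine aminotransferase (11.81 and 12.19 under CCl4, against 13.58 and 14.81 in oil; -2.19 ± 0.35, adjusted p = 0.35), Rgn, regucalcin (-1.27 ± 0.39), and Cyp2c50 (-2.66 ± 0.98).

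Of the periportal genes, which mark the opposite end of the lobule, 7 of 17 were lower under CCl4 in knockout livers (median 0.17) and 16 of 17 in wild-type livers (median -0.39), with none called in either. The wild-type difference was -1.01 ± 0.42 for the urea cycle gene Otc, -0.39 ± 0.27 for the histidine pathway gene Uroc1 and -0.76 ± 0.54 for the immunoglobulin receptor gene Pigr. The lower means in wild-type livers thus included genes of both zones, and their adjusted p-values were 0.52 or more for these 3.

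Among Wnt target genes outside the 8, Sp5, a transcription factor gene switched on by beta-catenin, read 5.29 and 6.69 in knockout livers given CCl4, against 7.52 and 7.48 in oil, and 5.04 and 6.40 in wild-type livers given CCl4, against 8.72 and 7.38 in oil. Its differences were -1.51 ± 0.56 in knockout (adjusted p = 1) and -2.33 ± 0.56 in wild-type livers (adjusted p = 0.43). On CCl4 replicate 1 Sp5 lay under the lowest detected signal in both genotypes (5.83 in knockout, 5.67 in wild-type livers). Both differences therefore include a value at the floor. The receptor gene Tnfrsf19 (-1.23 ± 0.40) and Notum (-0.70 ± 0.27), which encodes an enzyme that inactivates Wnt ligands, came next in wild-type livers. The list of 7 had a median of 0.31 in knockout and -0.19 in wild-type livers. The 13 pathway components, Ctnnb1 (beta-catenin) among them, had medians of -0.01 and 0.03, and the central vein ligand genes Wnt2, Wnt9b and Rspo3 differed by -0.06, 0.77 (with Wnt9b not above background in oil) and 0.04 in knockout and by -0.66, -0.62 and -0.25 in wild-type livers, with none called. The 6 aryl hydrocarbon receptor genes had medians of -0.04 and 0.02, and the 14 genes of glutamine, glutamate and ammonia handling -0.08 and -0.18, again with none called.

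The comparison of AICAR with saline asks what an AMPK activator did in livers with and without LKB1. No member passed the threshold in either genotype, and no unadjusted p among the members was under 0.05, against 12.2% of features in knockout and 10.7% in wild-type livers. In knockout livers limma called 136 of 11338 features (1.2%), in wild-type livers 1 (0.00882%), and for the interaction with genotype 34 (0.3%), with no member among any of them. In knockout livers 6 of 8 members were lower (54.6% of all features), with a median of -0.36, and in wild-type livers 4 of 8 were lower (47.7% of all features), with a median of 0.16. The medians of all features were -0.049 and 0.019.

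Glul read 7.30 and 7.61 in knockout livers given AICAR, against 7.14 and 7.53 in knockout saline livers, and 7.38 and 7.44 in wild-type livers given AICAR, against 7.21 and 6.82 in saline. Its differences of 0.12 (95% interval -0.56 to 0.79) and 0.40 (-0.16 to 0.95) are the narrowest intervals of the 8. Slc1a2 read 10.61 and 10.50 in knockout livers given AICAR, against 10.27 and 10.23 in saline, and 9.72 and 9.84 in wild-type livers given AICAR, against 10.82 and 10.11 in saline. It was bright on all 8 arrays, with differences of 0.31 ± 0.87 and -0.69 ± 0.71. Rhbg read 8.98 and 8.54 in knockout livers given AICAR, against 9.50 and 9.46 in saline, and 8.68 and 8.98 in wild-type livers given AICAR, against 8.35 and 8.34 in saline. The AICAR arrays lay below saline in knockout livers (-0.72 ± 0.64) and above it in wild-type livers (0.49 ± 0.52).

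Cyp2e1 read 14.40 and 14.37 in knockout livers given AICAR, against 14.73 and 14.76 in saline, and 14.79 and 15.06 in wild-type livers given AICAR, against 15.85 and 15.47 in saline. Both genotypes had the AICAR arrays below the saline arrays, by -0.36 ± 0.59 and -0.74 ± 0.48. Cyp1a2 read 12.12 and 12.55 in knockout livers given AICAR, against 12.60 and 12.64 in saline, and 13.04 and 13.73 in wild-type livers given AICAR, against 13.63 and 13.30 in saline. Its differences were -0.28 (-1.59 to 1.03) and -0.08 (-1.15 to 0.99), and both intervals include 0.

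Tbx3 read 7.93 and 7.77 in knockout livers given AICAR, against 8.84 and 8.49 in saline, and 9.09 and 9.17 in wild-type livers given AICAR, against 8.82 and 8.02 in saline. Axin2 read 6.63 and 6.24 in knockout livers given AICAR, against 7.05 and 7.04 in saline, and 7.13 and 7.14 in wild-type livers given AICAR, against 6.22 and 6.94 in saline. For both, the AICAR arrays were below saline in knockout livers and above it in wild-type livers. Of the other Tbx3 probes, ILMN_3139514 had the same order, and the dimmer ILMN_3061990 overlapped in both genotypes. Arrays separate in both genotypes and in opposite order were found for 4 of 8 members and for 12.8% of all features. The differences were -0.82 ± 0.55 and 0.71 ± 0.45 for Tbx3 and -0.61 ± 0.67 and 0.55 ± 0.55 for Axin2, and the interaction of AICAR with genotype for Tbx3 was -1.53 (95% interval -3.11 to 0.05, adjusted p = 0.56). Stellate cell markers ran the same way, with 6 of 6 lower in knockout livers given AICAR than in saline (median -0.41) and 5 of 6 higher in wild-type livers (median 0.72), and none called. The summed erythroid signal was 10400 on both knockout AICAR arrays, against 27900 to 28500 in knockout saline livers, and 44200 to 49200 in wild-type livers given AICAR, against 17800 to 25400 in wild-type saline livers. The part of both cell types in the values of Axin2 and Tbx3 was not tested. Lgr5 read 6.45 and 5.35 in knockout livers given AICAR, against 6.20 and 6.34 in saline, and 5.36 and 6.09 in wild-type livers given AICAR, against 6.13 and 5.66 in saline. Its groups overlapped in both genotypes. Because the knockout saline arrays count as 1 sample, the knockout AICAR comparison rests on 3 samples.

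The knockout was compared with wild-type under each agent to ask what the loss of LKB1 did to the pericentral genes. Glul, glutamine synthetase, fell in knockout livers given oil, to 5.54 and 5.14, against 7.35 and 7.09 in wild-type livers given oil, and it was the only member called in any of the 13 comparisons made (difference -1.88 ± 0.25, adjusted p = 0.0065). The knockout oil arrays were not above background, so the ratio is a bound of at least 2.67-fold lower. The deposited intensities were 195.6 and 181.2 on the knockout oil arrays, against 341.9 and 272.0 on the wild-type oil arrays. The single Glul probe was dim throughout, at 4.85 to 7.61 over all arrays, where the lowest detected signal was 5.51 to 5.93 per array. In saline, the same gene read 7.14 and 7.53 in knockout livers, against 7.21 and 6.82 in wild-type livers, a difference of 0.32 (95% interval -0.36 to 1). Markers of sinusoidal endothelial cells summed to 5270 to 7410 in knockout oil livers, against 10200 to 11100 in wild-type oil livers, with 4 of 6 lower and none called. Stellate cell markers summed to 2360 to 5500 in knockout oil livers, against 6080 to 8460 in wild-type oil livers, also with 4 of 6 lower and none called. The part of these cell types in the Glul difference was not tested.

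For Glul in oil, 24 of 26 other settings kept the call. Of these settings, 16 left out 1 array, and leaving out an array outside the 2 oil groups can change only the shared spread. The call was lost without knockout oil replicate 2 (-1.68) and with only the 2 oil groups in the fit (adjusted p = 0.13). It held without wild-type oil replicate 1 (-1.75) and without replicate 2 (-2.01). The size depends on the scale: it was -0.72 without background correction (adjusted p = 0.021) and -0.76 in the authors' normalized values (adjusted p = 0.017). Under CCl4 Glul was again not above background in knockout livers (4.85 and 5.45), against 5.98 and 5.84 in wild-type livers, which is at least 1.12-fold lower (-0.75 ± 0.25, adjusted p = 0.22). Under AICAR the genotypes differed by 0.04 (-0.51 to 0.59).

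**Figure D4:**
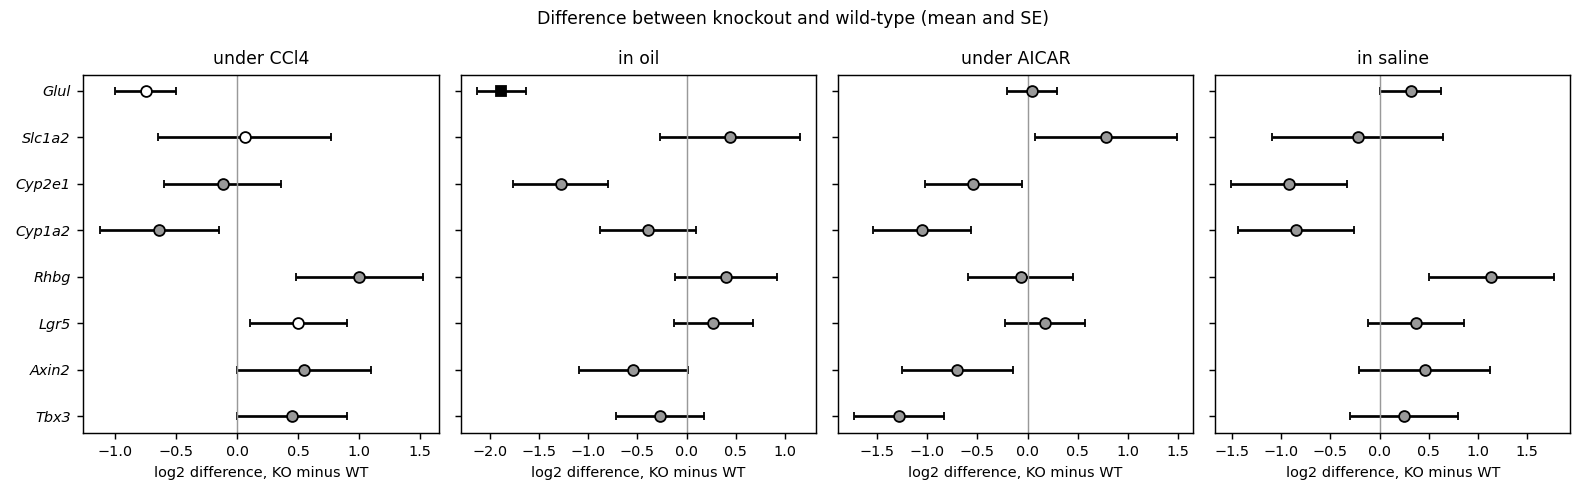
Log2 difference between knockout and wild-type livers for the 8 pericentral genes under each agent, with bars of 1 SE, a black square for an adjusted p under 0.05 and open points where a group was not above background. Glul in oil, at -1.88, is the only square, and Glul under AICAR and in saline lay at 0.04 and 0.32.

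In oil, limma called 141 of 11338 features (1.24%), 63 of them lower (0.556%), and 1 of the 8 members, which was lower. Unadjusted p-values under 0.05 were found for 2 members (15.7% of features), and 5 of 8 had a lower knockout mean (51.3% of features), with a median of -0.33 against -0.013 for all features. Cyp2e1 had the next largest difference there, 14.74 and 14.10 in knockout against 15.57 and 15.82 in wild-type livers (-1.28 ± 0.48, adjusted p = 0.24). In saline, where the knockout pair counts as 1 sample, the Cyp2e1 mean was also lower in knockout livers (-0.92 ± 0.59). Its difference over both vehicles was -1.10 ± 0.38 (adjusted p = 0.25). Under CCl4 the Cyp2e1 difference was -0.12 (95% interval -1.18 to 0.94). Cyp1a2 had lower knockout means under all 4 agents, by -0.64 under CCl4, -0.39 in oil, -1.05 under AICAR and -0.85 in saline, with adjusted p-values of 0.22 or more. Under CCl4 its value was 0.08 without knockout CCl4 replicate 1 and 0.02 without wild-type CCl4 replicate 2, so that direction rested on single arrays. Its other probe gave -1.26 ± 0.44 under AICAR (adjusted p = 0.11 over all kept probes).

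Rhbg had higher knockout means under CCl4 (1.00 ± 0.52, adjusted p = 0.52) and in saline (1.14 ± 0.64, adjusted p = 1), where 9.50 and 9.46 stood against 8.35 and 8.34. Without knockout CCl4 replicate 1 the first of these was 2.01 and was called (adjusted p = 0.045, range over all settings 0.045 to 0.99), and without replicate 2 it was -0.01. Slc1a2 differed between genotypes by 0.44 ± 0.71 in oil, 0.78 ± 0.71 under AICAR and -0.22 ± 0.87 in saline, and under CCl4 neither genotype was above background. The oil value was -0.99 without wild-type oil replicate 1, 1.87 without replicate 2, -0.19 without knockout oil replicate 1 and 1.06 without replicate 2, and has no settled direction. In saline limma called 15 features (0.132%) and under CCl4 146 (1.29%), with no member in either. The members' unadjusted p-values fell under 0.05 for none of 8 in saline (4.77% of features) and for 1 of 8 under CCl4 (11.7%). A higher knockout mean was found for 5 of 8 members in saline (50.6% of features) and for 4 of the 7 measured under CCl4 (47.5% of features).

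Under AICAR, where 854 features were called (7.53%) and no member was, the largest member difference was that of Tbx3, which read 7.93 and 7.77 in knockout against 9.09 and 9.17 in wild-type livers (-1.28 ± 0.45, adjusted p = 0.11). Another Tbx3 probe, ILMN_3139514, gave -1.27 ± 0.35 (adjusted p = 0.057 over all kept probes), and ILMN_3061990 gave -0.28 ± 0.37. The Tbx3 difference was called in 3 of 26 other settings (adjusted p from 0.016 to 0.32): with only the 2 groups in the fit, and without either wild-type CCl4 array, neither of which enters the difference. Axin2 differed by -0.70 ± 0.55 there. Under AICAR 5 of 8 members had a lower knockout mean (52.7% of features), and 1 had an unadjusted p under 0.05 (23.8%). The stellate cell markers moved with these genes: all 6 were lower in knockout livers given AICAR (median -0.97, summed signal 2550 to 3340, against 7110 to 8230 in wild-type livers given AICAR). The stellate genes Acta2 (-3.26 ± 0.82) and Col1a1 (-2.52 ± 0.63) were called, with an adjusted p = 0.037 each, and so was the erythroid gene Hba-a1 (-2.21 ± 0.59, adjusted p = 0.045). The part of these cell types in the Tbx3 and Axin2 differences was not tested.

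Oil and saline livers were also compared with each other, although the 2 vehicles were taken as controls of different agents. Averaged over genotypes, oil minus saline was -0.90 ± 0.20 for Glul (adjusted p = 0.19) and -1.26 ± 0.56 for Slc1a2 (adjusted p = 0.47). Only knockout livers had the lower Glul mean in oil, 5.34 against 7.34 in saline. The wild-type means were 7.22 in oil and 7.02 in saline. The interaction of vehicle with genotype for Glul was -2.20 ± 0.40 (95% interval -3.07 to -1.33, adjusted p = 0.78). It includes the knockout oil group, which was not above background, and was -0.88 with no background correction. limma called 0 of 11338 features (0%) for the vehicles and 0 (0%) for the interaction, with 1177 (10.4%) and 478 (4.22%) at an unadjusted p under 0.05. Over both vehicles together, 150 features differed between genotypes (1.32%) and no member was among them. Glul came nearest with -0.78 ± 0.20 (adjusted p = 0.11), an average of opposite signs, -1.88 in oil and 0.32 in saline. It passed with all 16 arrays as samples (adjusted p = 0.033), and with the replicate number as a block in those 16 (adjusted p = 0.047). Both of these fits count the knockout saline pair as 2 samples.

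Other genes of the same pathways were called between genotypes. Oat, a pericentral gene, read 15.81 and 15.85 in knockout livers given CCl4, against 11.81 and 12.19 in wild-type livers (3.83 ± 0.35, adjusted p = 0.00041), and in oil it rose by 1.79 ± 0.35 (adjusted p = 0.037). Got1, which encodes cytosolic aspartate aminotransferase, read 13.03 and 13.07 in knockout livers given CCl4, against 9.14 and 8.19 in wild-type livers (4.39 ± 0.40, adjusted p = 0.00041), and it was also called in oil (3.83 ± 0.40) and under AICAR (2.66 ± 0.40). Nr1i3, the xenobiotic receptor CAR, read 7.44 and 7.68 in knockout livers given AICAR, against 9.99 and 9.82 in wild-type livers (-2.35 ± 0.29, adjusted p = 0.0012). Cyp3a11 was lower in knockout livers under CCl4 (-1.25 ± 0.22, adjusted p = 0.02). Of the 18 other pericentral genes, 1 was called higher and none lower in oil, 1 each way under CCl4, none in saline, and 1 lower under AICAR. The shares of all features called either way were 1.24% in oil, 1.29% under CCl4, 0.132% in saline and 7.53% under AICAR. Over both vehicles Oat, Nr1i3 and Rnase4 of this list were called, against 1.32% of all features. Directions within this list were mixed, with 8 of 18 higher in oil and 9 of 18 in saline.

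Periportal genes had 4 of 17 called higher under CCl4 (0.838% of all features), 5 of 17 under AICAR (4.02%) and 1 in oil (0.688%), with none lower. Examples were the urea cycle genes Ass1 (1.18 ± 0.23 in oil, adjusted p = 0.035; 1.47 ± 0.23 under CCl4, adjusted p = 0.013) and Asl (1.99 ± 0.40 under CCl4, adjusted p = 0.041), Etnppl (3.52 ± 0.65 under CCl4, adjusted p = 0.027), and the gluconeogenic genes G6pc (4.63 ± 0.57 under AICAR, adjusted p = 0.0011) and Pck1 (2.40 ± 0.61 under AICAR, adjusted p = 0.038). The list's median was 0.83 under CCl4 and 0.50 in oil, against 0.45 for the 7 members measured under CCl4 and -0.33 for the 8 in oil.

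The ammonia and glutamate list also held the glutamate transporter gene Slc1a1 (-2.62 ± 0.67, adjusted p = 0.039) and the glutamine transporter gene Slc38a3 (1.23 ± 0.33, adjusted p = 0.049), both called under AICAR. Ugt1a6a, a target of the aryl hydrocarbon receptor as Cyp1a2 is, was lower in knockout livers under AICAR (-0.92 ± 0.18, adjusted p = 0.011) and over both vehicles (-0.88 ± 0.14, adjusted p = 0.0098). None of the 13 Wnt pathway components, 7 Wnt targets or 3 ligands was called between genotypes under any agent. In oil Ctnnb1 differed by -0.51 ± 0.16 (adjusted p = 0.17) and the Wnt receptor turnover gene Rnf43 by -1 ± 0.25 (adjusted p = 0.092), with Rnf43 not above background in knockout livers.

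**Figure D5:**
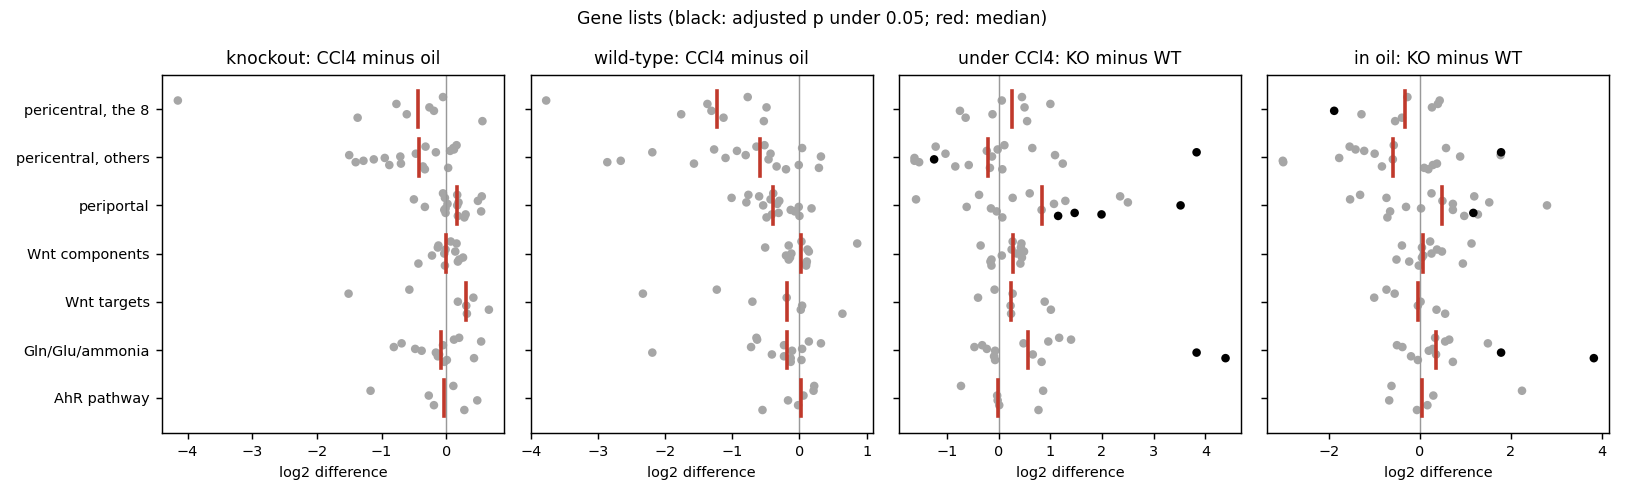
Log2 differences of the tested genes of each list for CCl4 minus oil in each genotype and for knockout minus wild-type under CCl4 and in oil, with 1 point a gene, black points for an adjusted p under 0.05 and a red line at the list's median. The 8 members had medians of -0.43, -1.22, 0.25 and -0.33 in the panels from left to right, genes not above background in either group included, and Oat and Got1 are the black points farthest to the right under CCl4 in their lists.

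Across the 15 samples the members did not share 1 pattern. The closest pair was Cyp2e1 and Cyp1a2 (Pearson r = 0.83, a description over samples that share groups), then Glul with Slc1a2 and Axin2 with Tbx3 (both 0.68), while Slc1a2 and Axin2 gave -0.32. Glul, Slc1a2 and Lgr5 were detected on 12, 12 and 9 of 16 arrays, so every r with them includes values at background. Outside the 8, the features most like Glul were Slc25a47 (r = 0.918), the unnamed probe ILMN_2704509 (0.906) and Chst15 (0.859). Tapbp (0.854), Ndfip1 (0.845) and Tyw1 (0.817) were most like Slc1a2. Those most like Cyp2e1 were Acaa1b (0.879), the unnamed ILMN_1247071 (0.868) and Akr1c6 (0.863), and for Cyp1a2 they were Ces1g (0.888), Cyp2d12 (0.884) and Acad12 (0.881). Rhbg was followed most closely by the unnamed ILMN_1233929 (0.841) and ILMN_3081944 (0.806) and by Gstm2 (0.791), and Lgr5 by Gtpbp6 (0.847), Pank4 (0.828) and Snapc2 (0.788). Svep1 (0.868), Olfml3 (0.828) and Col4a5 (0.823) were most like Axin2, and Guca1b (0.832), Accs (0.802) and Sptlc1 (0.776) most like Tbx3.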

How the data were processed

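Liver RNA of 8 groups was hybridised to Illumina arrays, 16 in all. The deposited table holds probe intensities, not normalized, and a detection p-value per probe and array in steps of 1/798; both were exported by the authors from GenomeStudio, per the submitters' processing notes. No column of per-sample values lacked a sample (0). The authors' normalized intensities (value table) had array medians of 190.9 to 191.1, in the same rank order of probes, with scale linear and centring method unstated; they served as an alternative.

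From the deposited intensities, values were background-corrected and quantile-normalized with neqc in limma 3.58.1 (R 4.3.3; offset 16, negative controls inferred from the detection p-values) and put on the log2 scale. Probes detected at p under 0.05 on 2 or more arrays were kept (15411 of 25697), with 1 probe a gene, that of highest mean, giving 11338 features (10436 with a symbol). GEO's annotation of the platform gave 1 gene symbol for 23978 probes and none for 1719; 23962 were matched by Entrez ID to current symbols, and 0 changed. Other probes of the members were read from a fit of every kept probe.

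All 8 groups entered 1 limma model of group means with empirical Bayes moderation (residual df 7, prior df 3.76), with 13 comparisons and Benjamini-Hochberg adjustment over features in each. Every p-value is limma's and two-sided, and its precision is limited by 2 arrays a group. No array batch was used. Where a group was on no array above background, a bound was computed against the lowest detected signal (log2 5.51 to 5.93 per array). The fit was tested on simulated data.

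The members and gene lists were chosen with earlier results of these data known. The genes named are the 8 members, up to 3 called genes of a list by size of change (with none called, the 3 of smallest p), Stk11, and the 3 features most correlated with each member. Alternatives varied background correction, normalization, probe filter, probe choice, array weights, samples in the fit, the replicate block and each array left out.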

Additional observations from a re-analysis of the deposited data

Results flagged for a closer look

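For 4 members the AICAR and saline arrays were separate in both genotypes and lay in opposite order, and the difference between the genotypes was tested as an interaction. The same pattern was found for 12.8% of all 11338 features, and the knockout saline pair counts as 1 sample. Slc1a2 was higher on both AICAR arrays in knockout livers and lower on both in wild-type livers, with an interaction of 0.99 ± 1.12 (limma, adjusted p = 0.84). Rhbg, Axin2 and Tbx3 were lower on both AICAR arrays in knockout livers and higher on both in wild-type livers. Their interactions were -1.21 ± 0.83 for Rhbg (adjusted p = 0.7), -1.16 ± 0.87 for Axin2 (adjusted p = 0.74) and -1.53 ± 0.72 for Tbx3 (adjusted p = 0.56). None passed the threshold. Other probes of Slc1a2 and Tbx3 were divided. The opposite order was also found for Slc1a2 ILMN_3123195 (interaction 1.00 ± 1.03) and Tbx3 ILMN_3139514 (-1.48 ± 0.56). It was not found for Slc1a2 ILMN_2642339 (0.43 ± 0.86), the dim Slc1a2 ILMN_3047516 (-0.33 ± 0.53) or Tbx3 ILMN_3061990 (0.17 ± 0.58).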

How the results depend on the processing

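Of 2691 comparisons of a member's value with its value under an alternative, 2611 kept direction and side of the threshold, 69 called in neither changed sign, 2 lost a call, 9 gained one and 0 called values changed sign. The 2 lost calls were Glul in oil, knockout against wild-type (adjusted p = 0.13 with only the groups compared, 0.069 without knockout oil replicate 2). Part of the agreement in the 2691 comparisons was fixed in advance. Leaving out an array outside the groups compared cannot change a difference, only the shared spread. Fits with 16 arrays as samples or only the groups compared also keep the group means as they are. Counts of called features moved more. With no background correction they were 2 for AICAR in wild-type livers and 218 for knockout in oil, and with the authors' values 2 and 212. With no probe filter AICAR in wild-type livers had 0, and with a strict filter the AICAR interaction had 21. With 16 arrays as samples counts were 652 for AICAR in knockout livers, 118 for its interaction, 60 for oil against saline, and, for knockout against wild-type, 243 in oil, 94 in saline, 222 under CCl4 and 433 over both vehicles. Array weights gave 219 for AICAR in wild-type livers, 59 for its interaction, 35 for knockout in oil and 1286 for knockout under AICAR. With only the groups compared, counts were 0 for AICAR in wild-type livers and, for knockout, 17 in oil, 0 in saline, 44 under CCl4 and 67 over both vehicles.

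The labels give same-numbered samples nothing in common but the number. The replicate block was fitted on 16 arrays as samples, so its counts are to be read against the counts of that fit. With the replicate block counts were 630 for AICAR in knockout livers, 96 for its interaction, 38 for oil against saline and, for knockout, 231 in oil, 82 in saline and 375 over both vehicles. Differences between replicates correlated at 0.48 between knockout CCl4 and knockout oil, a hint from the data that numbers may pair there, but at -0.28 between wild-type CCl4 and wild-type oil, -0.4 between knockout and wild-type oil and -0.13 between wild-type AICAR and saline. For the negative ones the crossed pairing was added after seeing the data. With only the groups compared, the crossed pairing gave 8 calls and the same-number block 19 for CCl4 in wild-type livers, 791 and 0 for knockout in oil, and 0 and 0 for AICAR in wild-type livers.

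Without each array in turn, counts ran from 0 to 6 for CCl4 in knockout livers, 0 to 2 in wild-type livers and 0 to 6 for the interaction. For AICAR they ran from 54 to 159 in knockout livers (fewest without knockout AICAR replicate 2), 0 to 2 in wild-type livers and 0 to 41 for the interaction. For knockout against wild-type they ran from 32 to 172 in oil (fewest without knockout oil replicate 2), 2 to 17 in saline, 40 to 178 under CCl4 (fewest without wild-type CCl4 replicate 1), 229 to 1096 under AICAR (fewest without wild-type AICAR replicate 1) and 85 to 176 over both vehicles, with 0 to 9 for oil against saline and 0 to 2 for the vehicle interaction. A group left with 1 array was assumed to vary like the others, and apart from the fits with fewer samples or features the cause was not tested. Lgr5, Glul and Slc1a2 fell to background on several arrays, which limits their differences to bounds there.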
